A study of Mus musculus with 8 samples.

Results

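The germline genes described here are 38 genes that are normally transcribed in germ cells or in the testis, and many of which are silenced in somatic cells by DNA methylation of their promoters. They were taken by symbol from a fixed list, with no filter on signal. Of the 38 genes, 31 had a named probe on the bead array, through 45 probes, among 16582 genes with a named probe and 25669 probes in all. The 7 listed genes without a named probe were Tdrd5, Tdrd9, Fkbp6, Rhox2a, Rhox13, Xlr3a and Rpl10l, and they are not analysed here. The tested cells were cultured primary vascular smooth muscle cells (VSMC), which contract the vessel wall, from male C57Bl6/J mice aged 8 weeks, infected with lentivirus carrying short hairpin RNA against Uhrf1 (shUHRF1). The controls were primary VSMC of the same strain, sex and age infected with lentivirus carrying scrambled short hairpin RNA (shSCR). Both groups were selected with puromycin for 2 days, and RNA was taken at day 5. Each group had 2 RNA samples, and each RNA sample was measured on 2 arrays, which gives 8 arrays. Whether the RNA samples are of different cultures or animals, and whether both shUHRF1 samples carried the same hairpin, is not stated in the labels. The spread behind every p-value may thus be a technical one.

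Uhrf1 encodes a protein that binds hemimethylated DNA behind the replication fork and recruits Dnmt1, the maintenance methyltransferase that copies methylation to the new strand. Many germline genes have CpG-rich promoters that are methylated in the soma, and some become transcribed in mouse cells that lose DNA methylation. A polycomb complex that contains E2f6, Mga, Max, Pcgf6 and L3mbtl2 is a further repressor of germline genes and binds E-box and E2F motifs. The comparison asks which of the germline genes were switched on in VSMC after RNA interference against Uhrf1, in each shUHRF1 sample on its own, and which stayed at array background.

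The targeted gene was low in both shUHRF1 samples. The detected Uhrf1 probe (ILMN_2517041) averaged 9.06 (normalized log2 signal) in shUHRF1 sample 1 and 8.48 in shUHRF1 sample 2. The shSCR samples 1 and 2 averaged 11.52 and 11.54. Uhrf1 transcript was thus still well above background in both shUHRF1 samples. The duplicate arrays of an RNA sample did not repeat each other equally well. With the mean over the 8 arrays taken off each of 5552 bright probes (mean raw signal above 300), duplicates correlated across probes at r = 0.27 in shUHRF1 sample 1 and at -0.02 in shUHRF1 sample 2, but at 0.73 and 0.77 in shSCR samples 1 and 2. The first arrays of shUHRF1 samples 1 and 2 correlated at 0.43 with each other. The second array of shUHRF1 sample 2 correlated at 0.17 with the second array of shSCR sample 2, above its value with its own duplicate. For Uhrf1 the arrays read 9.40 and 8.73 in shUHRF1 sample 1 and 8.39 and 8.58 in shUHRF1 sample 2. The shSCR arrays read 11.45 to 11.62, so every shUHRF1 array had the low Uhrf1 signal of its group. Whether each shUHRF1 array holds the RNA sample on its label was not tested, and the values of single shUHRF1 samples rest on those labels. Both arrays are therefore given for each germline gene detected on both arrays of an RNA sample, and the fits were repeated on the first arrays alone and on the second arrays alone.

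Most of the germline genes stayed at background in cells with and without Uhrf1 knockdown. A probe counts as detected on an array where its deposited detection p-value is under 0.05, a threshold that about 1 in 20 probes without a transcript would also meet. On the shUHRF1 arrays 3 or 4 of the 45 germline probes were detected, against 4 or 5 on the shSCR arrays, while 45.9% to 48.2% of all probes were detected on the shUHRF1 arrays and 45.1% to 46.9% on the shSCR arrays. The dimmest detected signal lay between 4.76 and 4.89 on the log2 scale, the median of all probes was 4.7 on every array, and the median detected signal lay between 7.32 and 7.54. By this measure 21 of the 31 genes were not detected on any array by any probe. A further 4 genes, Dazl, Ddx4, Dppa4 and Tex101, were detected on single arrays only. The remaining 6 genes, Rhox5, Xlr4a, Zcwpw1, Sohlh2, Tdrd1 and Brdt, were detected on both arrays of at least 1 RNA sample. Of these, Rhox5 was the only germline gene with a signal in the range of an average detected transcript, and it reached that range in shUHRF1 sample 2 alone.

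**Figure D1:**
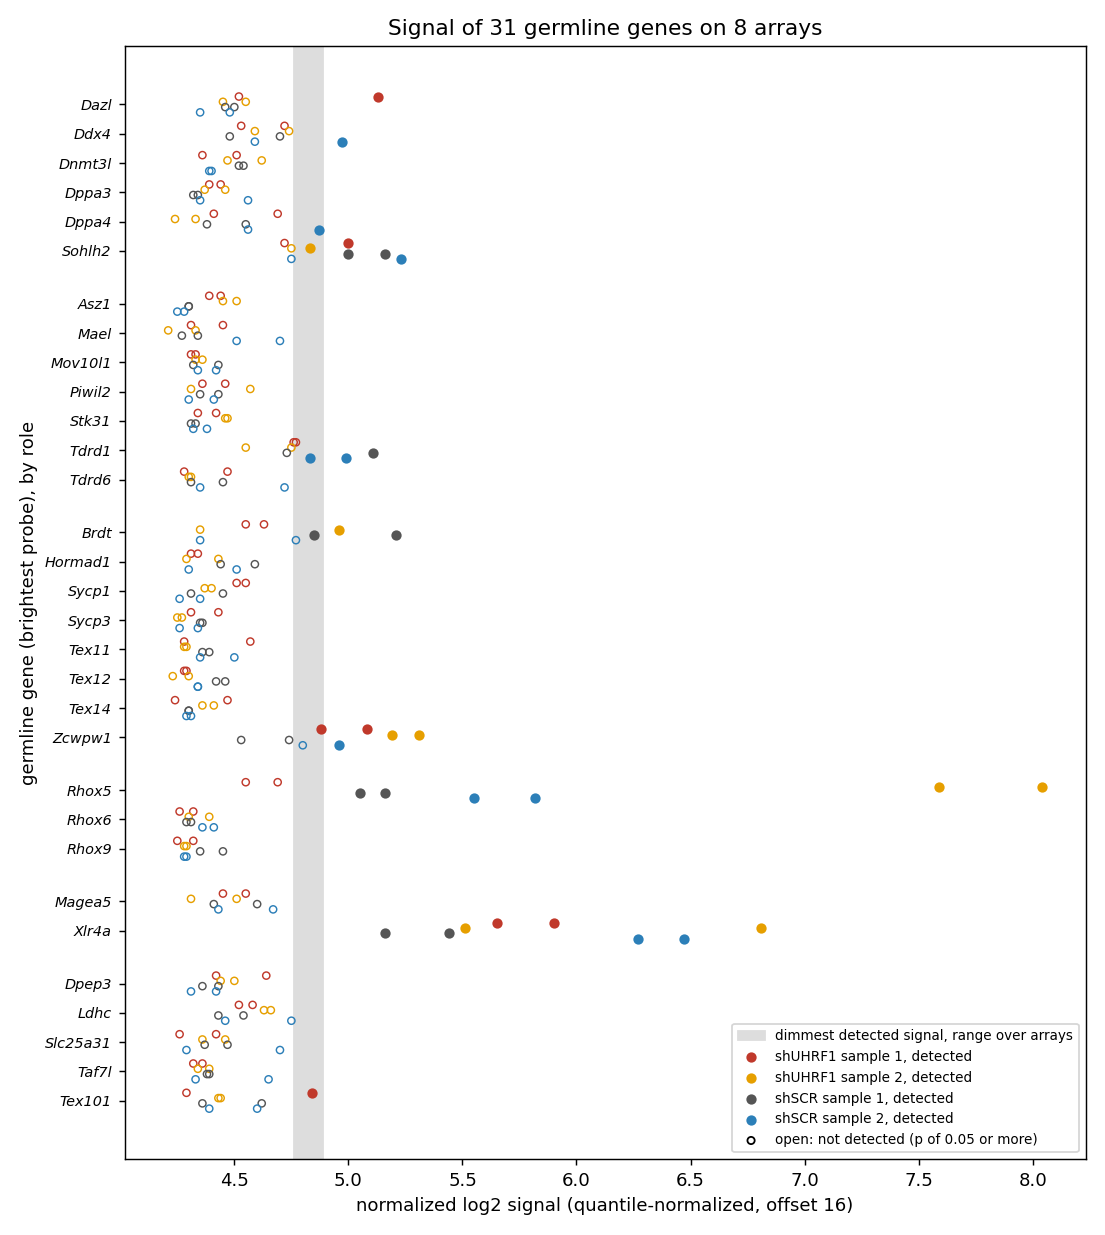
Normalized log2 signal (x axis) of the brightest probe of each of the 31 germline genes (y axis, grouped by role) on 8 arrays, filled where the probe was detected and open where it was not. The grey band spans the dimmest detected signal over the arrays, 4.76 to 4.89, and most genes lie left of it in both groups, while Rhox5 lies at 7.59 and 8.04 in shUHRF1 sample 2.

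The promoters show what kind of sequence this group carries. RefSeq promoters of the GRCm38.p6 build, 250 bases before to 50 bases after a gene's start, were matched for 31 of the 38 listed genes, with or without a probe, and where a gene had several the one with the highest CpG ratio was taken. The CpG ratio, which sets the observed number of CpG dinucleotides against that predicted from base composition, had a median of 0.70 in the germline promoters, 0.67 in the 13328 genes with a probe and a promoter, and 0.41 in all 27025 genes of the promoter table. The E-box CACGTG, which reads the same on both strands, was found in 14 of the 31 germline promoters (45.2%), against 8.63% of the genes with a probe and 7.38% of all genes. The E2F-type motif TCCCGC, searched on both strands, was found in 10 of the 31 (32.3%), against 29.3% and 21.0%. These values describe sequence alone, since methylation was not analysed here.

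The E-box was spread unevenly over the roles. It stood in 6 of 8 promoters of piRNA pathway genes, in 5 of 7 of meiosis genes, in 2 of 6 of the testis forms of housekeeping genes and others and in 1 of 4 of germ cell identity genes, but in 0 of 3 Rhox promoters and 0 of 3 promoters of X-linked lymphocyte-regulated and Mage genes. Among the genes never detected it stood in 9 of 15 promoters, and among the genes detected on both arrays of an RNA sample in 2 of 6, those of Brdt and Tdrd1.

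The promoters printed here are those of the genes with the highest signals (Rhox5, Zcwpw1 and Xlr4a), of Tdrd1, which was detected in a control sample only, and of Sycp3 and Mael, which were never detected and carry the E-box. Each is read 5′ to 3′ on the gene's own strand, with every CG in capitals.
Rhox5, chrX:37754358-37754657, plus strand: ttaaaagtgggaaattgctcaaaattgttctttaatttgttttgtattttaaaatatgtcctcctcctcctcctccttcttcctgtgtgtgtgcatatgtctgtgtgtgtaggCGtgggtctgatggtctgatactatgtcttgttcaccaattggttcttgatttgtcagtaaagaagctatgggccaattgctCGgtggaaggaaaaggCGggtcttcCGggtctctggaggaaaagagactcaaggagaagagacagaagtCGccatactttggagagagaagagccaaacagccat
Zcwpw1, chr5:137787552-137787851, plus strand: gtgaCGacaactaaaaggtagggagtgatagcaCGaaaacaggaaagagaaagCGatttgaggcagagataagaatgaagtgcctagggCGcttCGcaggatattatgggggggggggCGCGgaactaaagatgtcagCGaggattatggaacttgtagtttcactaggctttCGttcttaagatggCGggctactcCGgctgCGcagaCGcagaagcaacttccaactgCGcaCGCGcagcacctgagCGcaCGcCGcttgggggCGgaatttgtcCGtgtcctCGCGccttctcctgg
Xlr4a, chrX:73082458-73082757, minus strand: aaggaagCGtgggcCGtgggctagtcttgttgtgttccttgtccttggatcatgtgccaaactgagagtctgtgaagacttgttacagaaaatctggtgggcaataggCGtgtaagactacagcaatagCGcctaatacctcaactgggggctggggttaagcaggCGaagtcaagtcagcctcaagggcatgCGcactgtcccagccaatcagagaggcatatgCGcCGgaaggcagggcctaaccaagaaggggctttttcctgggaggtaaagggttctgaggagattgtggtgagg
Tdrd1, chr19:56826025-56826324, plus strand: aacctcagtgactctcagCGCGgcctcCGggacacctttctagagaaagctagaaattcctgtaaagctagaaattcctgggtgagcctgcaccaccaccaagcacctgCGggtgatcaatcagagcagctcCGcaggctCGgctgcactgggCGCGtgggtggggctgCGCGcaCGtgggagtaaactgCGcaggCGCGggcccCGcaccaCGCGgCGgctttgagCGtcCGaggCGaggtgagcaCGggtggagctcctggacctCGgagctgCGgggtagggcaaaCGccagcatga
Sycp3, chr10:88459337-88459636, plus strand: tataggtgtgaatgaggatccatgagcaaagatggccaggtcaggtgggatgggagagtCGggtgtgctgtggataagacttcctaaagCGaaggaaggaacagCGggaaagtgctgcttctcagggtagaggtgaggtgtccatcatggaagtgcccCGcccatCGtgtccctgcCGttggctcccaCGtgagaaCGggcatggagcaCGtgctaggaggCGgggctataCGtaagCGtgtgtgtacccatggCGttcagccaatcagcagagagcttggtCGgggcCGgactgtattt
Mael, chr1:166238695-166238994, minus strand: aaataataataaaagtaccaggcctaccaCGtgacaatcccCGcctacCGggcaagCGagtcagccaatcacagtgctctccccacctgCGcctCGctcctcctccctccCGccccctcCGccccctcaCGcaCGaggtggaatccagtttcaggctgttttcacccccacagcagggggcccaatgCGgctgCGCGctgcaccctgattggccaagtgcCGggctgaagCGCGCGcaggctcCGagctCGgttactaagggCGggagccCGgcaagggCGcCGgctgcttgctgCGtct

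The 2 X-linked promoters of this set are the CpG-poor ones. The Rhox5 window holds 5 CpG sites (ratio 0.36) and the Xlr4a window 8 (ratio 0.40), neither with an E-box or the E2F-type motif. The other windows are denser, with 23 CpG sites in Zcwpw1 (ratio 1.06), 25 in Tdrd1 (0.81), 15 in Sycp3 (0.67) and 24 in Mael (0.78). With the base before the start counted as -1, the E-box begins at -77 in Tdrd1, at -64 and -43 in Sycp3 and at -223 in Mael. The Zcwpw1 window, with the highest CpG ratio of those printed, has no E-box.

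**Figure D2:**
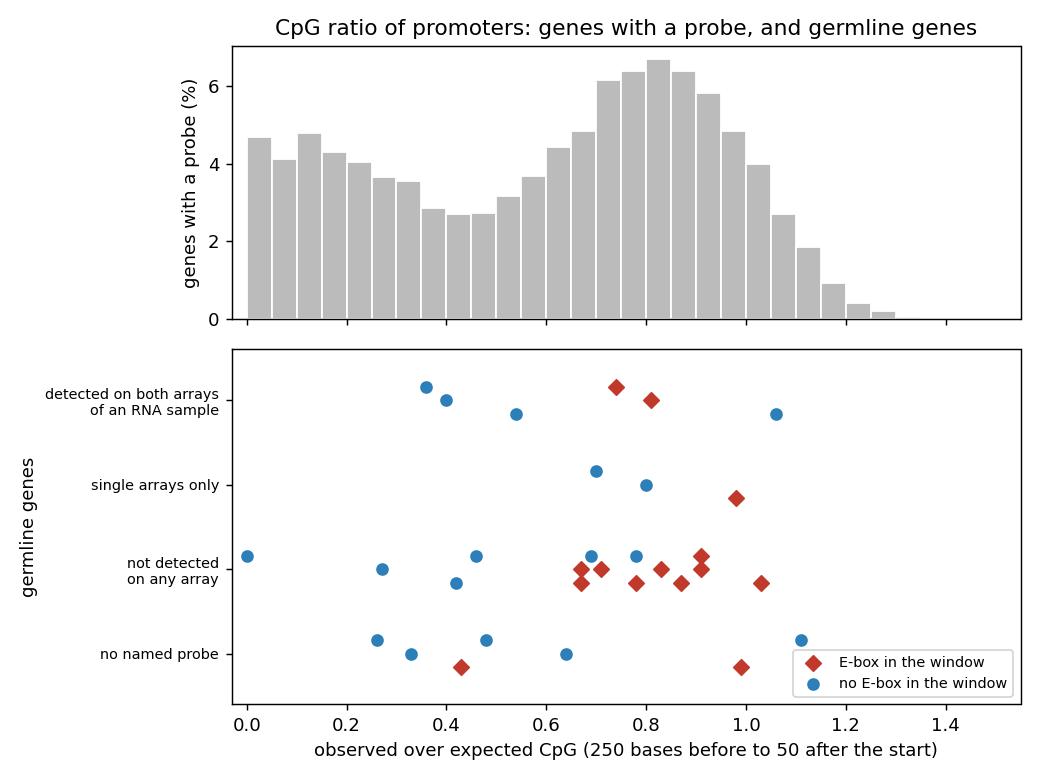
The upper panel gives the distribution of the CpG ratio (x axis) over promoters of genes with a probe, as a percentage of genes (y axis), and the lower panel the ratio of each of the 31 germline promoters by how the gene was detected, with a red diamond where the window holds the E-box CACGTG. The never-detected genes include 9 of 15 with an E-box, and the detected genes Rhox5 and Xlr4a lie among the CpG-poor promoters at 0.36 and 0.40.

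By the rule for a gene switched on, detection on both arrays of a shUHRF1 sample and on none of the 4 shSCR arrays, 0 of the 45 germline probes qualified in shUHRF1 sample 1, where 0.413% of all probes did. In shUHRF1 sample 2 it was also 0 of 45, where 0.464% of all probes did. The mirror rule, detection on both arrays of a shSCR sample and on no shUHRF1 array, was met by 0 germline probes in shSCR sample 1, with 0.183% of all probes, and by 1 in shSCR sample 2, that of Tdrd1, with 0.218% of all probes. Detection on both arrays of an RNA sample was reached by 2 germline genes in shUHRF1 sample 1, Xlr4a and Zcwpw1, and by 3 in shUHRF1 sample 2, Rhox5, Xlr4a and Zcwpw1, through 4.44% and 6.67% of the germline probes, where 42.7% and 43.8% of all probes reached it. In shSCR sample 1 it was reached by 4 genes, Brdt, Rhox5, Sohlh2 and Xlr4a, and in shSCR sample 2 by 3, Rhox5, Tdrd1 and Xlr4a, through 8.89% and 6.67% of the germline probes, where 42.7% and 42.4% of all probes did. Zcwpw1 met the rule in both shUHRF1 samples when shSCR sample 2 was left out, and was the only germline gene to do so. The share of all probes was not counted for this alternative.

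Tested by limma with Benjamini-Hochberg adjustment over all 25669 probes, 0 of the 45 germline probes passed an adjusted p of 0.05 in both shUHRF1 samples together, where 0% of all probes passed, and 0 passed in either shUHRF1 sample on its own, again with 0% of all probes. At an unadjusted p under 0.05 it was 0 of 45 germline probes in both samples together, where 10.6% of all probes passed. In shUHRF1 sample 1 it was 1, that of Dazl, where 13.5% of all probes passed, and in sample 2 it was 2, those of Rhox5 and Zcwpw1, where 7.93% passed. In the fits of a single shUHRF1 sample, that sample is assumed to vary like the shSCR samples. The SE and p-values of these fits rest on the spread between the shSCR samples, which limma draws for each probe towards a value common to all probes. Duplicates of shUHRF1 samples 1 and 2 correlated at 0.27 and -0.02, against 0.73 and 0.77 in shSCR samples 1 and 2. The SE and p-values of the single-sample fits may thus be too small. For 1 value over 2 RNA samples against 2, an exact permutation test cannot go below a two-sided p of 0.333.

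Rhox5, also known as Pem, is the founding homeobox gene of the X-linked reproductive homeobox cluster, is transcribed in Sertoli cells and placenta, and is silenced by methylation in most mouse somatic cells. Its single probe (ILMN_2762935) read 4.69 and 4.55 on the arrays of shUHRF1 sample 1 and 7.59 and 8.04 on those of shUHRF1 sample 2, against 5.05 and 5.16 in shSCR sample 1 and 5.82 and 5.55 in shSCR sample 2. Both arrays of shUHRF1 sample 2 lay above all control arrays, and both arrays of shUHRF1 sample 1 lay below them. The gene was detected on all 4 shSCR arrays, so it did not count as switched on in shUHRF1 sample 2. Its detection p was 0.0213 and 0.0163 in shSCR sample 1, and 0.00125 and 0.00501 in shSCR sample 2. At a detection threshold of 0.01 it was thus detected in shSCR sample 2 but not in shSCR sample 1, where its signal lay near the detection limit. In shUHRF1 sample 1 the gene was detected on neither array (detection p of 0.078 and 0.199).

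In shUHRF1 sample 2 Rhox5 was 5.35-fold above the mean of the shSCR samples (log2 difference 2.42, SE 0.30), which placed it 6th from the top of all 25669 probes. The genes above it were Actg2, Serpina3n, Gdf10, Angpt2 and Mmp13. The size of this difference depended on the processing, with log2 values of 1.76 with an offset of 50, 1.25 without background correction and 0.64 in the authors' processed values, each in the same direction. The difference in shUHRF1 sample 2 did not pass limma's adjusted threshold. Its SE of 0.30 rests on the spread between the shSCR samples, drawn by limma towards a value common to all probes. The Rhox5 means of the shSCR samples themselves differed by 0.58, so this SE may be too small for the gene. In shUHRF1 sample 1 the log2 difference was -0.78 (SE 0.30, limma adjusted p = 0.437). Since the probe was not detected there, the comparison gives a bound, which on this normalized scale puts shSCR at least 1.49-fold higher than shUHRF1 sample 1. This bound sets the shSCR mean against the dimmest detected signal of each array of shUHRF1 sample 1, and it holds for this background correction and offset only. The log2 difference in shUHRF1 sample 1 was -0.38 with an offset of 50, -0.24 without background correction and -0.10 in the authors' processed values. The samples differed from each other by 3.20, and by the size of this difference Rhox5 ranked 2nd among all probes. Over both samples together the log2 difference was 0.82 (SE 1.14, limma adjusted p = 0.883). Without shUHRF1 sample 2 it was the sample 1 value again, -0.78. The mean raw signal of Rhox5, before any normalization, showed the same order. It was 112.6 for shUHRF1 sample 1 and 344.6 for shUHRF1 sample 2, against 128.7 for the shSCR samples.

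Some other quantities are set beside the Rhox5 values here. Uhrf1 was 0.58 lower in shUHRF1 sample 2 than in sample 1 on the log2 scale, while Dnmt1 averaged 8.68 in sample 1 with shUHRF1, 9.17 in sample 2 with shUHRF1, and 9.52 and 9.47 in the shSCR samples. Of the 5 Sertoli cell markers with a probe, Amh, Fshr, Cldn11 and Dhh were not detected on any array, and Sox8 was detected on shSCR arrays only. Their summed log2 signal was 21.92 to 22.56 on shUHRF1 arrays and 22.16 to 23.13 on shSCR arrays. The 5 fibroblast markers with a probe had a summed log2 signal of 27.42 to 36.14 on shUHRF1 arrays and 26.07 to 29.27 on shSCR arrays. All 5 were higher in shUHRF1 over both samples, with a median log2 difference of 0.53. Of the 5, Col14a1, Pdgfra, Pi16 and Scara5 were detected on both arrays of an RNA sample. Lum, a matrix proteoglycan gene, was not, and read 6.48 on the first and 4.31 on the second array of shUHRF1 sample 2. Pdgfra, a receptor gene of fibroblasts in the same list, read 6.30 and 5.89 in shUHRF1 sample 1 and 7.96 and 6.85 in sample 2, against 6.92, 6.84, 6.45 and 6.38 in shSCR. The Pdgfra difference was -0.55 in sample 1 and 0.76 in sample 2. The medians of the 5 fibroblast markers were 0.68 in sample 1 and 0.91 in sample 2, so the list did not share the Pdgfra direction in sample 1. The part of these differences in the Rhox5 values was not tested.

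The other genes of the Rhox cluster did not share the Rhox5 pattern. Rhox6 and Rhox9, homeobox genes of placenta and germ cells, were not detected on any array. Rhox6 read 4.32, 4.26, 4.30 and 4.39 on the shUHRF1 arrays and 4.31, 4.29, 4.36 and 4.41 on the shSCR arrays. Rhox9 read 4.32, 4.25, 4.28 and 4.29 on the shUHRF1 arrays and 4.45, 4.35, 4.28 and 4.29 on the shSCR arrays. Of 5 further Rhox genes with a probe, Rhox12 alone was detected on both arrays of an RNA sample, with 5.12, 4.85, 5.38 and 5.43 on the shUHRF1 arrays and 5.47, 4.95, 5.27 and 5.71 on the shSCR arrays. These groups of Rhox12 values overlap, and its log2 difference was -0.16 (SE 0.19, limma adjusted p = 0.861), with -0.36 in shUHRF1 sample 1 and 0.05 in sample 2.

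**Figure D3:**
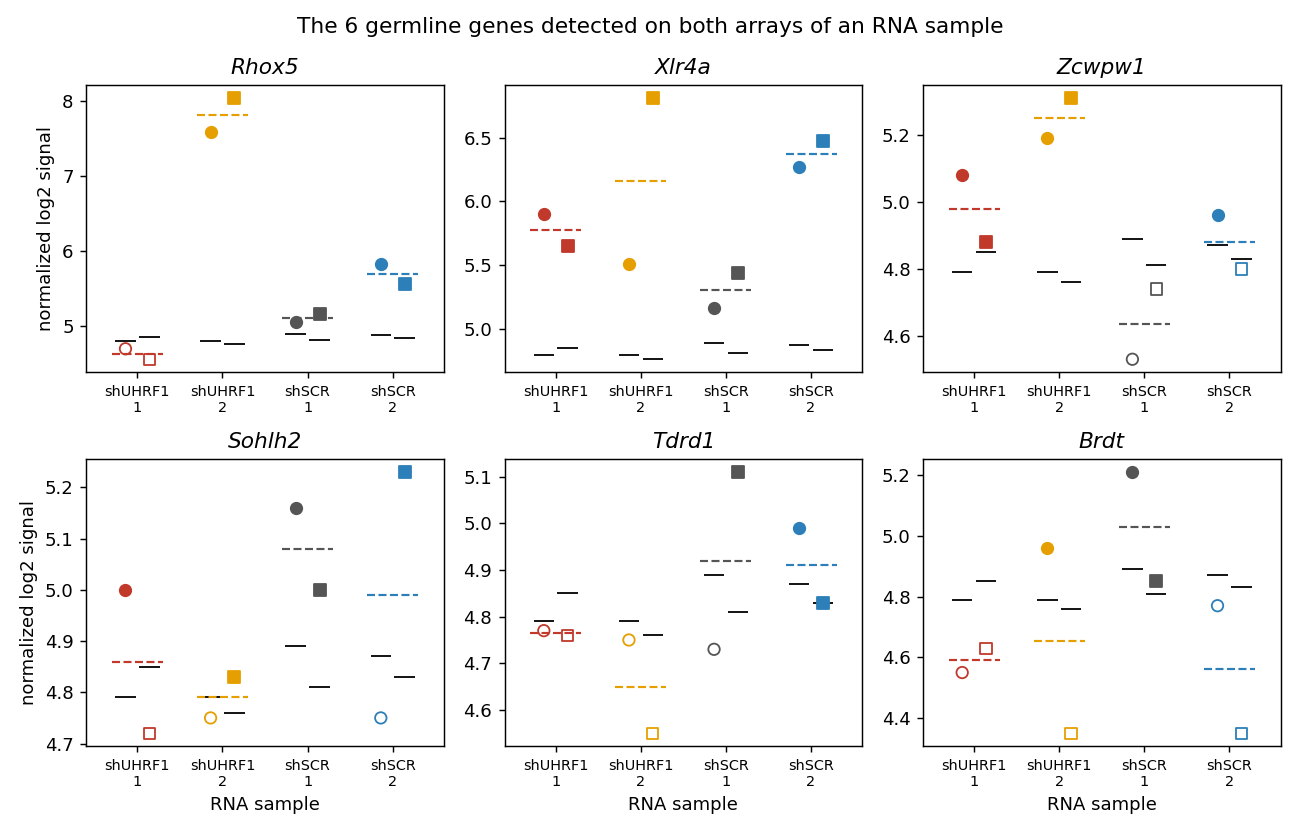
Normalized log2 signal (y axis, own scale per panel) of the 6 germline genes detected on both arrays of an RNA sample, by RNA sample (x axis), with circles for first arrays, squares for second arrays, filled where detected, black ticks for the dimmest detected signal of the array and dashed lines for sample means. Rhox5 at 7.59 and 8.04 in shUHRF1 sample 2 stands apart, while the other 5 genes have overlapping arrays or lie close to the black ticks.

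Zcwpw1, a histone reader that recognises the marks left by Prdm9 at recombination sites in meiosis, came nearest to a switch in both shUHRF1 samples. Its probe (ILMN_2982316) read 5.08 and 4.88 on the arrays of shUHRF1 sample 1 and 5.19 and 5.31 on those of sample 2, against 4.53 and 4.74 in shSCR sample 1 and 4.96 and 4.80 in shSCR sample 2. It was detected on all 4 shUHRF1 arrays and on 1 shSCR array, and the groups overlap through the second array of shUHRF1 sample 1. The log2 difference was 0.36 (SE 0.15, limma adjusted p = 0.516) over both samples, 0.22 in shUHRF1 sample 1 and 0.50 in sample 2 (unadjusted p = 0.0441, limma adjusted p = 0.618). All of these signals lie close to the dimmest detected signal, so the size of the difference is uncertain.

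The remaining genes of meiosis stayed at background or close to it. Brdt, a bromodomain protein of spermatocytes and spermatids, read 4.55, 4.63, 4.96 and 4.35 on the shUHRF1 arrays and 5.21, 4.85, 4.77 and 4.35 on the shSCR arrays on its brighter probe (ILMN_2705747), with a log2 difference of -0.17 (SE 0.18). The groups overlap, and without shSCR sample 1 the difference was 0.06. Its other probe was not detected on any array and had a difference of -0.02. The synaptonemal complex genes Sycp1, Sycp3 and Tex12, the chromosome axis gene Hormad1, the recombination gene Tex11 and Tex14, needed for the bridges between germ cells, were never detected. Sycp3 read 4.31, 4.43, 4.25 and 4.27 on the shUHRF1 arrays and 4.35, 4.36, 4.26 and 4.34 on the shSCR arrays, so the group values lie on top of each other.

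Tex12 was the only germline gene with every shUHRF1 array below every shSCR array, at 4.29, 4.28, 4.23 and 4.30 in shUHRF1 against 4.42, 4.46, 4.34 and 4.34 in shSCR, where 4.53% of all probes lay so. Its log2 difference was -0.11 (SE 0.08), and with all values below the detection range the order carries no transcript level. Asz1, which anchors piRNA factors at the germ cell mitochondria, was the only one with every shUHRF1 array above every shSCR array, where 4.13% of all probes lay so. Asz1 read 4.44, 4.39, 4.51 and 4.45 in shUHRF1 and 4.30, 4.30, 4.25 and 4.28 in shSCR, never detected, with a log2 difference of 0.16 (SE 0.08, limma adjusted p = 0.569).

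Xlr4a, a member of the X-linked lymphocyte-regulated family, was detected on all 8 arrays. Its probe (ILMN_2965669) read 5.90 and 5.65 in shUHRF1 sample 1 and 5.51 and 6.81 in sample 2, against 5.16 and 5.44 in shSCR sample 1 and 6.27 and 6.47 in shSCR sample 2. The groups overlap, and the duplicates of shUHRF1 sample 2 lie further apart than the means of the shSCR samples. The log2 difference was 0.13 (SE 0.40, limma adjusted p = 0.955) over both samples, -0.06 in shUHRF1 sample 1 and 0.33 in sample 2. Without shSCR sample 1 the Xlr4a difference was -0.40, and leaving out shUHRF1 sample 2 gave -0.06. Xlr4a has near-identical copies in the mouse genome, Xlr4b and Xlr4c, and whether its probe tells them apart is not known here. The brightest probes of Xlr4b and Xlr4c read 4.28 to 4.73 and 4.27 to 4.43 and were not detected on any array. Magea5, a melanoma antigen family gene with close relatives in the genome, was not detected by any of its 3 probes, which lay between 4.26 and 4.67 and had log2 differences of -0.07, 0.07 and -0.13.

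Among the germ cell identity genes, Sohlh2 was the only one detected on both arrays of an RNA sample. Sohlh2, a basic helix-loop-helix factor of spermatogonia and early oocytes, read 5.0, 4.72, 4.75 and 4.83 on the shUHRF1 arrays and 5.16, 5.0, 4.75 and 5.23 on the shSCR arrays. It was detected on 2 shUHRF1 arrays and 3 shSCR arrays, with a log2 difference of -0.21 (SE 0.08, limma adjusted p = 0.5) and overlapping groups. Dazl, an RNA-binding protein that licenses germ cells and a classical methylation-silenced gene, read 4.52 and 5.13 in shUHRF1 sample 1 and 4.55 and 4.45 in sample 2, against 4.50, 4.46, 4.48 and 4.35 in shSCR. It was detected on the second array of shUHRF1 sample 1 and on no other. Its log2 difference in that sample was 0.37, from arrays that read 4.52 and 5.13, and did not pass limma's adjusted threshold.

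The other identity genes showed no such values. Ddx4, the vasa helicase of germ cells, was detected by 1 of its 3 probes on 1 shSCR array, at 4.97, and that probe read 4.72, 4.53, 4.59 and 4.74 in shUHRF1 against 4.70, 4.48, 4.97 and 4.59 in shSCR. Dppa4, a chromatin factor of pluripotent and early germ cells, was detected on 1 shSCR array by 1 of its 3 probes, which read 4.69, 4.41, 4.33 and 4.24 in shUHRF1 and 4.55, 4.38, 4.56 and 4.87 in shSCR. Dppa3, also known as Stella, which in mouse oocytes protects against DNA methylation and binds Uhrf1, and Dnmt3l, the cofactor of de novo methylation in germ cells, were not detected on any array. Dppa3 read 4.39, 4.44, 4.46 and 4.37 in shUHRF1 and 4.32, 4.34, 4.56 and 4.35 in shSCR.

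The piRNA pathway silences transposons in the male germ line, and 7 of its 10 listed genes had a probe. Tdrd1, a tudor-domain scaffold that binds Piwi proteins, met the mirror rule. Its brightest probe (ILMN_3132549) read 4.77, 4.76, 4.75 and 4.55 on the shUHRF1 arrays, detected on none of them, against 4.73, 5.11, 4.99 and 4.83 on the shSCR arrays, detected on the last 3. The log2 difference was -0.21 (SE 0.08, limma adjusted p = 0.509). The groups overlap, since the undetected shSCR array at 4.73 lies below shUHRF1 arrays at 4.77, 4.76 and 4.75. Over the alternatives the Tdrd1 difference over both samples ran from -0.32 to -0.02. Its other 2 probes were never detected, with log2 differences of 0.01 and -0.11, and with a detection threshold of 0.01 the mirror call was lost. Mael, Mov10l1, Piwil2, Stk31 and Tdrd6 were not detected on any array, and log2 differences over the 7 genes ran from -0.21 to 0.16 with a median of -0.05. Mael, a component of the germ granule, read 4.45, 4.31, 4.33 and 4.21 in shUHRF1 and 4.27, 4.34, 4.70 and 4.51 in shSCR.

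The testis forms of housekeeping genes and others were at background too. Ldhc, the lactate dehydrogenase of sperm, Slc25a31, the ADP/ATP carrier of the male germ line, Taf7l, a testis paralogue of a general transcription factor subunit, and Dpep3, a dipeptidase of germ cells, were never detected. Tex101, a surface protein of germ cells, was detected on the first array of shUHRF1 sample 1 at 4.84 and read 4.29 on the second, with 4.44 and 4.43 in sample 2, against 4.36, 4.62, 4.39 and 4.60 in shSCR. The log2 differences of these 5 genes ran from -0.09 to 0.12.

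Over the 35 germline probes that were never detected, signals lay between 4.21 and 4.75 with a median of 4.36, and the median SD between arrays was 0.09. Their log2 differences ran from -0.15 to 0.18 in shUHRF1 sample 1, from -0.19 to 0.19 in sample 2 and from -0.13 to 0.16 over both. For 6290 genes that were undetected by any probe, differences over both samples had a median of 0 and a 5% to 95% range of -0.13 to 0.12. At this level a transcript too rare for the array cannot be told apart from none, and fewer cells with a transcript cannot be told apart from less RNA per cell.

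Over all 31 genes, the median log2 difference was -0.04 in shUHRF1 sample 1, with 13 genes higher, and -0.03 in sample 2, with 14 higher, where the median of all genes was -0.01 in each. Over both samples it was -0.02 with 14 genes higher, where the median of all genes was 0. The range was -0.78 to 0.37 in sample 1 and -0.30 to 2.42 in sample 2. Both comparisons use the same shSCR samples, so their values are not independent of each other. In shUHRF1 sample 1, both arrays lay above all shSCR arrays for 4 of the 45 probes, those of Asz1, Dazl, Magea5 and Sycp1, where 12.1% of all probes did, and below them for 2, of Rhox5 and Tex12, where 12.7% did. In sample 2 they lay above for 6, of Asz1, Dpep3, Rhox5, Stk31, Tex14 and Zcwpw1, where 9.26% did, and below for 5, of Dppa4, Magea5, Tdrd6, Tex11 and Tex12, where 10.2% did. Of these, Rhox5 and Zcwpw1 were detected on both arrays of the sample that stood above, and the others were not.

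**Figure D4:**
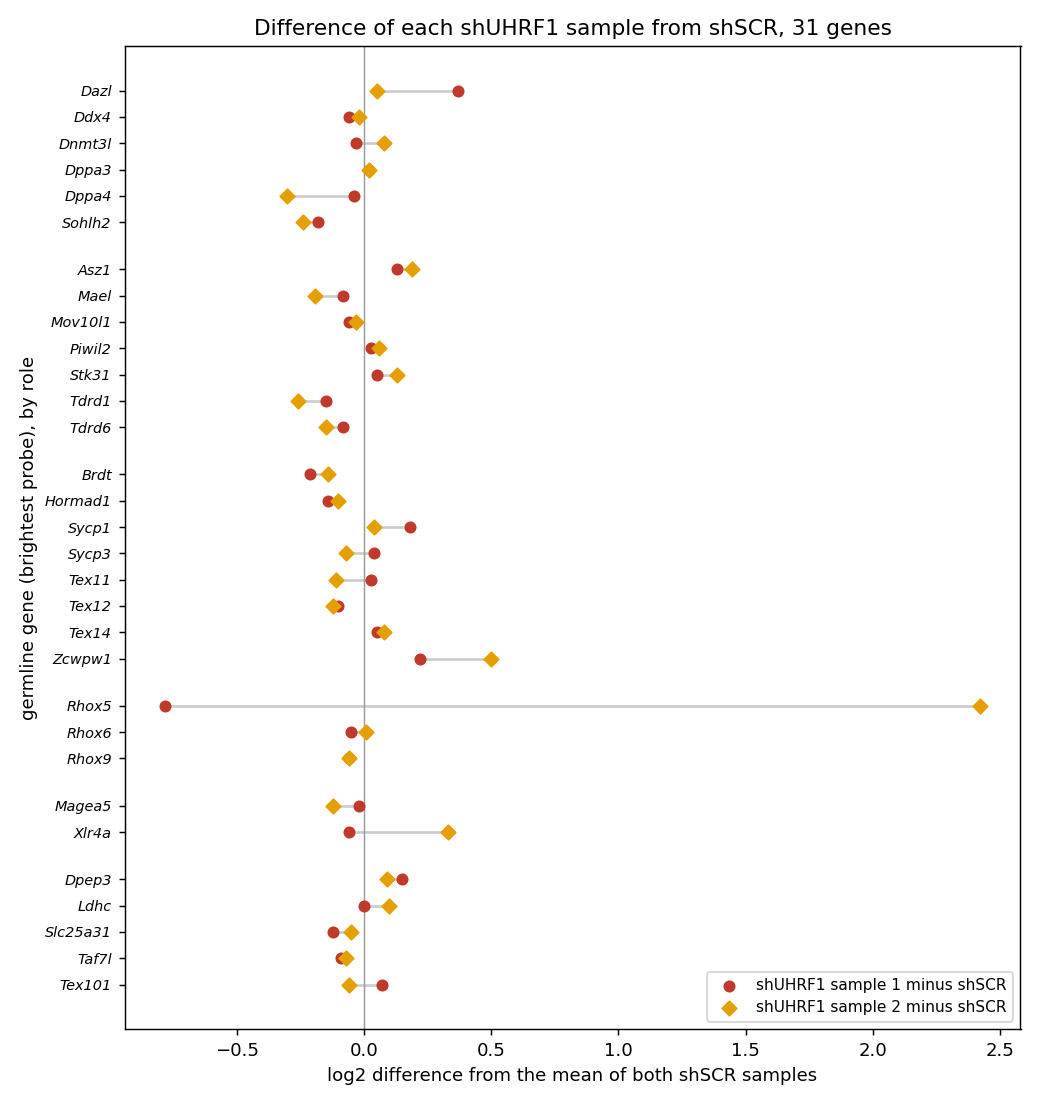
Log2 difference (x axis) of shUHRF1 sample 1 (red circles) and shUHRF1 sample 2 (orange diamonds) from the mean of both shSCR samples for the 31 germline genes (y axis, by role), joined by a grey line. Rhox5 spans -0.78 to 2.42, and all other genes lie between -0.30 and 0.50.

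Further germline genes, from lists of the same pathways, also stayed mostly at background. Of 19 other meiosis genes with a probe, 4 were detected on both arrays of an RNA sample. Psmc3ip, a partner of the meiotic recombinase that is also transcribed in dividing cells, read 8.52, 8.59, 9.12 and 9.20 in shUHRF1 and 9.39, 9.43, 9.57 and 9.51 in shSCR. All its shUHRF1 arrays lay below all shSCR arrays, where 4.53% of all probes lay so. The Psmc3ip log2 difference was -0.62 (SE 0.23, limma adjusted p = 0.479). Mnd1, which pairs with Psmc3ip, had -0.44 (SE 0.24), Prdm9, the methyltransferase that sets recombination sites, -0.31 (SE 0.09), and Sun1, a nuclear envelope protein of many cell types, 0.43 (SE 0.17). The shUHRF1 samples differed in size, with -0.92 in sample 1 and -0.31 in sample 2 for Psmc3ip, -0.77 and -0.11 for Mnd1, -0.37 and -0.26 for Prdm9, and 0.61 and 0.24 for Sun1. Prdm9 read 4.91, 4.86, 5.20 and 4.77 in shUHRF1 and 5.33, 5.09, 5.25 and 5.33 in shSCR, near the limit of detection.

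Of 9 other piRNA genes, Tdrd7 and Tdrkh were detected so, with log2 differences of 0.13 (SE 0.09) and -0.36 (SE 0.39). For Tdrkh it was -0.79 in shUHRF1 sample 1 and 0.07 in sample 2. Of 19 other X-linked testis genes 0 were, and of 19 spermatid genes 1 was, Odf2, which also serves the centrosome of somatic cells, with -0.17 (SE 0.10). Of 16 other germ cell identity genes 3 were, Dnd1 with -0.45 (SE 0.19), Pou5f1 with -0.02 (SE 0.21) and Sohlh1, the partner of Sohlh2. Pou5f1 had 0.23 in shUHRF1 sample 1 and -0.27 in sample 2. Sohlh1 was the only gene of these lists that met the rule for a gene switched on. On the probe that met it, ILMN_2850324, Sohlh1 read 4.64 and 4.25 in shUHRF1 sample 1 and 4.94 and 4.87 in sample 2, against 4.67, 4.41, 4.82 and 4.40 in shSCR. Its brighter probe, ILMN_1242183, read 4.90, 4.37, 4.85 and 4.51 in shUHRF1 and 4.63, 4.50, 5.47 and 4.38 in shSCR and did not meet it. By limma 0 probes of any of these lists passed an adjusted p of 0.05.

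Repressors of germline genes were transcribed in these cells. Of 23 such genes with a probe 19 were detected on both arrays of an RNA sample, with a median log2 difference of -0.08 over the list, and 0 passed limma's adjusted threshold. Beside Uhrf1 at -2.75 (SE 0.22), the largest differences were those of Dnmt1 at -0.56 (SE 0.19) and of the Uhrf1 paralogue Uhrf2 at -0.48 (SE 0.13). They were followed by E2f6 at -0.31 (SE 0.18) and Setdb1, the histone methyltransferase of retroelement silencing, at -0.29 (SE 0.11). The samples differed in size for E2f6, with -0.54 in shUHRF1 sample 1 and -0.07 in sample 2, and for Dnmt1, with -0.81 and -0.32. For Uhrf1 (ILMN_2517041), Dnmt1 and Setdb1 all shUHRF1 arrays lay below all shSCR arrays, where 4.53% of all probes lay so. For Setdb1 the margin was narrow, at 6.44 against 6.45. Setdb1 read 6.44, 6.4, 6.37 and 6.38 in shUHRF1 and 6.69, 6.45, 6.93 and 6.70 in shSCR. Members of the polycomb complex were detected, with Max at 0.07 (SE 0.07), Pcgf6 at -0.16 (SE 0.13), L3mbtl2 at 0.29 (SE 0.15) and Mga at 0.24 (SE 0.20). In shUHRF1 samples 1 and 2 these were 0.05 and 0.09 for Max, -0.29 and -0.02 for Pcgf6, 0.10 and 0.48 for L3mbtl2, and 0.47 and 0.01 for Mga. Dnmt3a, a de novo methyltransferase, was not detected on any array, whereas Dnmt3b was detected on all 8, with a log2 difference of -0.21 (SE 0.12), or -0.36 in shUHRF1 sample 1 and -0.07 in sample 2.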

How the data were processed

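The deposited signal is a mean bead intensity per probe and array on a linear scale, not normalized between arrays, per the file headers, with a detection p-value beside it. The submitters' processing notes name GenomeStudio 2011.1 and lumi, and do not say in the sources used here whether background had been subtracted. A second deposited table holds the authors' processed values on a log2-like scale with unstated transform, used as an alternative. Of 25671 probes, 2 with unreadable entries were left out. The platform annotation gave 1 symbol to 23950 probes, several to 0 and none to 1719, and 23934 Entrez identifiers matched RefSeq of GRCm38.p6, which also supplied the promoter sequences. The sources used here do not give the build on which probes were designed.

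Intensities were background-corrected by the normexp model with detection p-values and an offset of 16, quantile-normalized and log2-transformed, and duplicate arrays were averaged (limma 3.58.1, R 4.3.3). No filter on detection was applied. limma compared 2 shUHRF1 with 2 shSCR RNA samples, and each shUHRF1 sample with shSCR, adjusted over all 25669 probes by Benjamini-Hochberg. Its empirical Bayes step draws the variance of each probe towards a value common to all probes. A gene is represented by its probe with the highest mean signal over the 8 arrays. The number of RNA samples, 2 per group, limits the precision.

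Values per array are given for genes detected on both arrays of an RNA sample, genes switched on or meeting the mirror rule, and genes whose arrays do not overlap. Of the further lists, at most 5 genes each are named by the same rules. Other genes given with values, such as Rhox6, Sycp3, Dazl, Dppa3, Mael and the polycomb and Dnmt3 genes, were chosen after their values were seen. The germline genes and all lists, markers and alternatives were chosen with earlier results of these data known. Same-numbered samples of the groups correlated at -0.18 in their deviations, over 5552 bright probes. Alternatives varied the scaling, background correction, offset (50), filter, variance trend, probes, arrays, RNA samples, blocks and detection threshold (0.01, or a shSCR detection p over 0.2).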

Additional observations from a re-analysis of the deposited data

Results flagged for a closer look

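Rhox5 differed by 3.20 on the log2 scale between shUHRF1 sample 2 and sample 1, with every array of sample 2 above and every array of sample 1 below all shSCR arrays. This difference between the samples was not tested. A single array stood far from the other 3 of its group in 6 of 90 groups of 4 arrays. The gap then takes up most of the group's range. For 4 independent arrays chance would give about 1 in 20. The arrays of a group are duplicates of 2 RNA samples, so this rate does not hold for them. In shUHRF1 the values that stood far off were Dazl at 5.13 and Tdrd6 at 4.47 on the second array of sample 1. The others were Tex11 at 4.57 on the first array of sample 1 and Tdrd1 (ILMN_3132549) at 4.55 on the second array of sample 2. In shSCR they were Dppa3 at 4.56 on the first array and Ddx4 (ILMN_2643601) at 4.40 on the second array of sample 2. Of the 6, only the Dazl value was detected.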

How the results depend on the processing

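No germline probe passed limma's adjusted threshold under any of the alternatives run, 17 for both samples together and 9 for each shUHRF1 sample, with 0 called by the RNA sample number as a replicate block. The alternatives without 1 of the shUHRF1 samples repeat the fit of the other shUHRF1 sample. Apart from the random block, the array number block and the intensity trend, the alternatives called 0 of all probes. In the main fit Uhrf1 itself did not pass (limma adjusted p = 0.354), so the absence of calls says little about the germline genes. Same-numbered samples correlated at -0.18, so the crossed pairing was added after the data were seen, again with 0. With the RNA sample as a random block 85 of all 25669 probes were called and with the array number as a replicate block 3, and an intensity trend called 2, 72 and 1 of all probes for both samples, sample 1 and sample 2, in each case with 0 germline probes. The Rhox5 difference ran from 0.64 to 2.71 in shUHRF1 sample 2 and from -1.07 to -0.10 in sample 1 over 11 alternatives each, lowest in size in the authors' values.

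The germline median over both samples was -0.05 with median scaling, -0.01 in the authors' values, -0.01 with an offset of 50, 0.36 with a detection filter, which leaves 3 genes, and -0.04 to 0.01 without single RNA samples. In sample 1 it was -0.01 in the authors' values, -0.02 without background correction, -0.02 with an offset of 50, -0.06 with the filter, 0.01 from first arrays, and -0.05 to 0.02 without single shSCR samples. In sample 2 it was -0.08 with median scaling, -0.01 in the authors' values, without background correction and with an offset of 50, 0.50 with the filter, and -0.04 to -0.02 without single shSCR samples. The filter keeps probes detected on all 4 arrays of either group. Zcwpw1 passed it only through shUHRF1, where it was higher, and the filtered medians of 0.36 and 0.50 are its own values. These 2 medians therefore do not show a shift of the germline genes. With the filter the medians of the further lists were -0.38 for 4 meiosis genes, -0.12 for 2 piRNA genes and -0.16 for 1 Rhox gene. They were -0.24 for 2 identity genes and -0.17 for 1 spermatid gene, and no X-linked testis gene was left.

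At a detection threshold of 0.01, 1 germline gene was detected on both arrays of shUHRF1 sample 1 and 0 on both of shSCR sample 1, and the mirror count in shSCR sample 2 was 0. Without shSCR sample 2, 1 gene, Zcwpw1, counted as switched on in each shUHRF1 sample, so the count of genes switched on ran from 0 to 1. With median scaling 2 genes, Rhox9 and Tex12, had all shUHRF1 arrays below all shSCR arrays. In the main run 4.53% of all probes lay so. The share of all probes was not counted at the threshold of 0.01, without shSCR sample 2 or with median scaling. Differences that turned their direction were Xlr4a in sample 1 with median scaling (0.01), Xlr4a from first arrays (-0.01 over both samples, 0.18 in sample 1, -0.20 in sample 2), Sohlh2 from first arrays in sample 1 (0.04) and Brdt from second arrays in sample 1 (0.03). Differences also turned when single RNA samples were left out. Without shUHRF1 sample 2 the comparison is that of sample 1 again, with Rhox5 at -0.78 and Xlr4a at -0.06. Over the alternatives for both samples the range was -0.78 to 2.42 for Rhox5 and -0.40 to 0.66 for Xlr4a. The ends of the Rhox5 range are its values in single shUHRF1 samples. Xlr4a ranged from -0.60 to 0.47 in sample 1 and from -0.20 to 0.86 in sample 2. Brdt ranged from -0.41 to 0.06 over both samples, from -0.44 to 0.03 in sample 1 and from -0.38 to 0.10 in sample 2, in each case positive without shSCR sample 1. The cause was not tested. Signals near background limit the differences of the germline genes other than Rhox5 and Xlr4a.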
